A study of Mus musculus with 4 samples.

Results

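The BCL2 family genes described here are 10 genes that set whether a cell lives or undergoes mitochondrial apoptosis: Bcl2, Mcl1, Bcl2l1, Bcl2a1b, Bcl2a1d, Bax, Bak1, Bcl2l11, Pmaip1 and Bbc3. They were chosen by name, and each matched 1 of the 53801 genes in the tables of both tumour models. RNA came from blood mononuclear cells (PBMC) of wild-type mice, with 1 library in each of 4 groups: multimer-binding CD8+ CTRL and a residual of the CD8+ lymphocytes in the B16 model, and the same 2 populations in the CT-26 model. CTRL stands for circulating tumor-reactive lymphocytes, which were isolated with MHC multimers, reagents that stain T cells whose receptor recognises a given peptide. The models are named for their tumours, B16 being a melanoma and CT-26 a colon carcinoma of the mouse. All 4 samples carry the same labels for genotype (WT), cell type and treatment (multimer-binding), the residual included. The labels do not give the strain, the age or the number of animals behind a library, and they do not say how far the residual had been purified.

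The proteins of this family act at the outer membrane of the mitochondrion. Guardians such as BCL2, MCL1, BCL-XL (encoded by Bcl2l1) and A1 (encoded by the Bcl2a1 genes) hold back the effectors BAX and BAK, which otherwise form pores that release cytochrome c and start the caspases. BH3-only proteins, among them BIM (Bcl2l11), NOXA (Pmaip1) and PUMA (Bbc3), bind the guardians or the effectors and so favour death. In T cells, BCL2 and BIM are known for the balance that sets the survival of resting cells, MCL1 is needed at several stages, and A1 is induced on activation.

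The libraries held 37166063 reads in genes for B16 CTRL and 39068457 for the B16 library labelled residual, and 74879891 and 50823018 for the CT-26 pair. Genes with any read numbered 24575 in B16 CTRL and 36955 in the B16 library labelled residual, and 25243 and 24213 in the CT-26 pair. Why the B16 library labelled residual had the most was not tested. Cd8a, a chain of the CD8 coreceptor, had 15750 reads in B16 CTRL and 65 in the library labelled residual, and 54996 and 446 reads in CT-26, so the residual libraries go against their CD8+ label and the wording "labelled residual" is kept. The populations also differed in other blood cells. Markers of red cells summed to 13270.5 CPM (read counts on a common scale of library size, taken over reads in genes) in B16 CTRL against 426514 CPM in the library labelled residual, and neutrophil markers to 419 CPM against 10389 CPM. In CT-26 the red cell markers summed to 6442 CPM in CTRL and 109337 CPM in the library labelled residual, and the neutrophil markers to 138 CPM and 11244 CPM. B-cell markers went opposite ways, with 7996 CPM in B16 CTRL against 869 CPM, and 286 CPM in CT-26 CTRL against 965 CPM. In bulk RNA, fewer cells of a type and less RNA per cell cannot be told apart.

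With 1 library per group there is no replicate check within a model. The main value is the log2 ratio of the authors' normalized counts, CTRL over residual, with 1 added to each count. A gene was called higher or lower when this ratio was at least 1 in size and 1 of the libraries of the model held at least 10 CPM. The brackets after a ratio hold its exact 95% interval, which covers counting error only, since PCR copies were not marked by molecular identifiers and so do not count molecules.

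Bcl2 was the 1 family member called higher in CTRL in each model, while Bcl2l1 was called lower in both. In B16, 9 of 10 members reached the level, of which 1 was higher and 3 were lower (Bcl2l1, Bcl2l11 and Bbc3). Among the 9289 B16 genes at the level, 38.5% were called, 26.8% higher and 11.7% lower in CTRL. In CT-26, 8 of 10 members reached the level, of which 1 was higher and 4 were lower (Mcl1, Bcl2l1, Bcl2a1d and Pmaip1), beside 30.9% called among 9514 genes, 14.5% higher and 16.3% lower. The median log2 ratio of all 10 members was -0.29 in B16 and -1.32 in CT-26, where the median gene at the level stood at 0.47 and 0.23. The members under the level, Bak1 in both models and Bcl2a1b in CT-26, had negative ratios and pulled the member medians down.

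**Figure D1:**
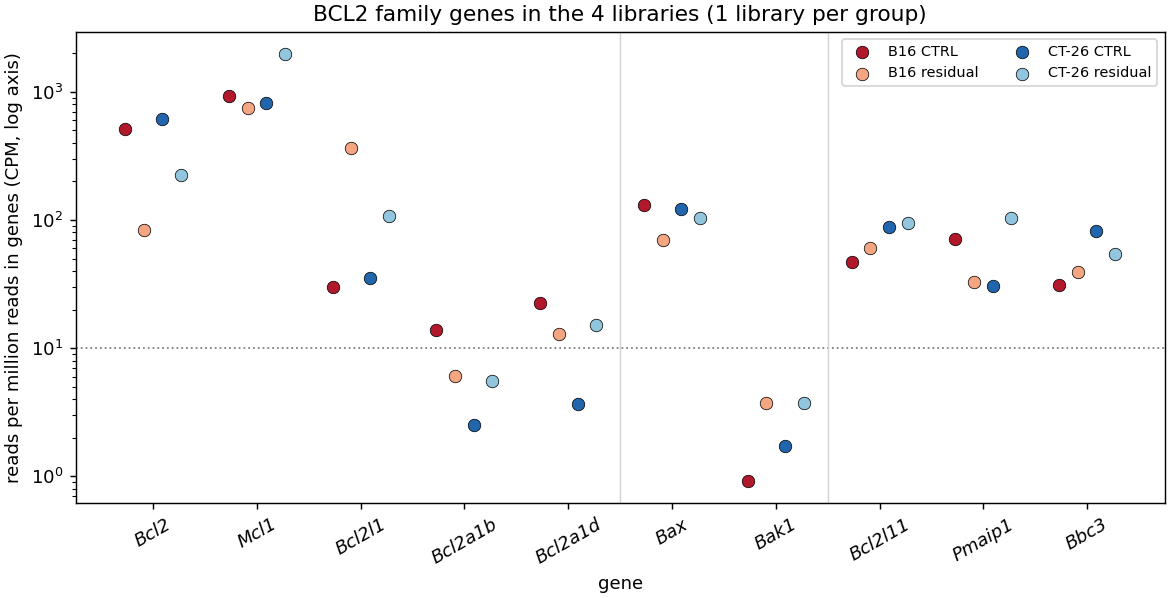
Read counts scaled to library size (CPM, log axis) of each BCL2 family gene in the 4 libraries, 1 point per library, with guardians, effectors and BH3-only genes separated by vertical lines and the level of 10 CPM dotted. Bcl2 lies at 514 and 620 CPM in the CTRL libraries and at 83.0 and 226 CPM in those labelled residual, and Bcl2l1 at 29.9 and 35.2 CPM in the CTRL libraries and at 365.5 and 108 CPM in those labelled residual.

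**Figure D2:**
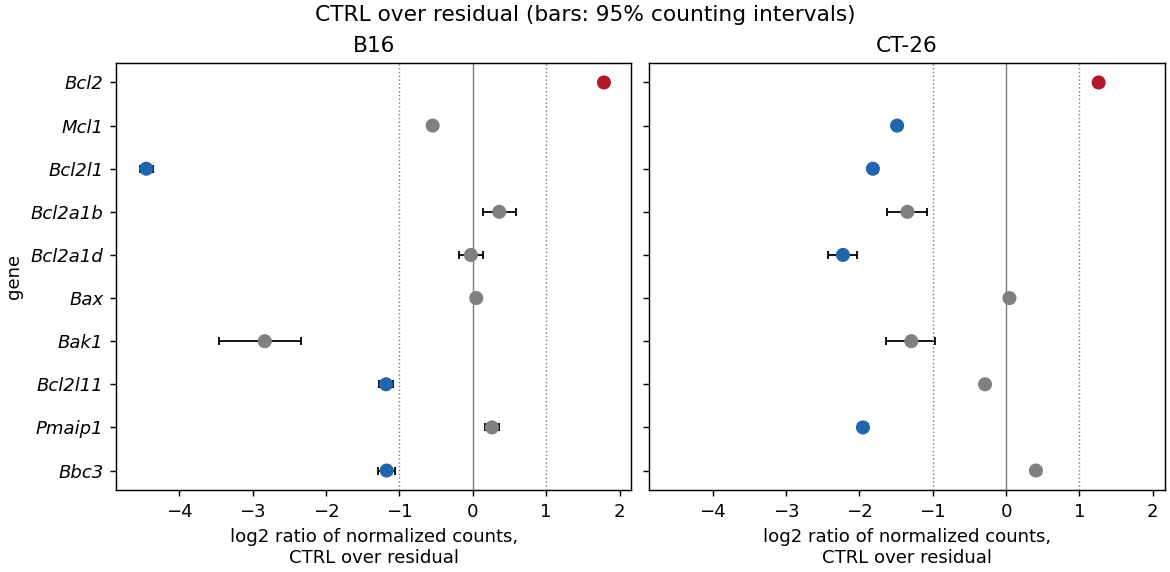
Log2 ratio of normalized counts, CTRL over residual, for each gene in B16 (left) and CT-26 (right), with 95% exact counting intervals as bars and the size limit of 1 dotted. Red points were called higher, blue points lower and grey points neither; Bcl2 stands at 1.79 and 1.26 and Bcl2l1 at -4.45 and -1.82.

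Among the guardians, Bcl2 (ENSMUSG00000057329, chromosome 1, 106538178 to 106714274 on mm10, minus strand) had 14615 normalized counts in B16 CTRL, against 4234 in the B16 library labelled residual. In CT-26 it had 35743 in CTRL, against 14902 in the library labelled residual. Both CTRL libraries were therefore above their partners, 3.45-fold in B16 (log2 1.79, 1.73 to 1.84) and 2.40-fold in CT-26 (log2 1.26, 1.23 to 1.29). Of the B16 genes at the level, 6.73% had a higher ratio than Bcl2, and of the CT-26 genes 8.82%. Of the 8765 genes at the level in both models, 8.71% were called higher in both. T-cell markers moved with Bcl2: the 8 markers summed to 3067 CPM in B16 CTRL against 520.3 CPM, and to 5493 CPM in CT-26 CTRL against 1765 CPM. Scaled to the reads of these markers, the ratio of Bcl2 was 0.07 in B16 and -0.18 in CT-26, so per T-cell marker read Bcl2 differed little between the populations and was no longer called. B cells express Bcl2 as well; their markers were higher in CTRL in B16 and lower in CT-26, where Bcl2 was also higher. Their part in the result was not tested.

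Bcl2l1, which encodes the guardian BCL-XL, is known for keeping red cell precursors and platelets alive. The gene (ENSMUSG00000007659, chromosome 2, 152780668 to 152831728 on mm10, minus strand) had 851 normalized counts in B16 CTRL, against 18648 in the library labelled residual. In CT-26 it had 2029.9 in CTRL, against 7147 in the library labelled residual. CTRL was the lower library in both models, 21.9-fold in B16 (log2 -4.45, -4.54 to -4.36) and 3.52-fold in CT-26 (log2 -1.82, -1.88 to -1.75), and 7.44% of genes at the level in both models were called lower in both. Of the B16 genes at the level, 1.80% had a lower ratio than Bcl2l1. The call held in both models under all 4 other scalings tried, that to total reads without haemoglobin genes included. Haemoglobin genes made up 1.28% of the reads of B16 CTRL and 42.0% of those of the library labelled residual, and 0.629% and 10.8% in CT-26. Platelet markers moved the same way, with 86.1 CPM in B16 CTRL against 689.7 CPM, and 16.5 CPM in CT-26 CTRL against 99.6 CPM. The lower level of Bcl2l1 in CTRL thus came with lower red cell and platelet markers in both models, and their part in it was not tested.

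Since Bcl2 and Bcl2l1 differed in opposite directions in both models, their start-site windows are shown side by side (RefSeq, GRCm38.p6, the build also called mm10). Each runs from 250 bases before the annotated start to 50 after it. The Bcl2 window lies at chr1:106714241-106714540 and the Bcl2l1 window, around the outermost annotated start of the gene, at chr2:152831679-152831978, both on the minus strand. Capitals mark matches to GGGCGG (a GC box), AGATAA (bound by GATA factors), TTCNNNGAA (STAT factors) or CCGGAAG (ETS factors) on either strand.
Bcl2: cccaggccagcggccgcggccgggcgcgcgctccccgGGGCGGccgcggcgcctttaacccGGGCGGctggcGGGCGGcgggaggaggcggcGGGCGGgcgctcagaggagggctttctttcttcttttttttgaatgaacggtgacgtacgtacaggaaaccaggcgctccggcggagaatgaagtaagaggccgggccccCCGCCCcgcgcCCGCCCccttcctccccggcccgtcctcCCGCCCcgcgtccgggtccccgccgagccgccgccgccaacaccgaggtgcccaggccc
Bcl2l1: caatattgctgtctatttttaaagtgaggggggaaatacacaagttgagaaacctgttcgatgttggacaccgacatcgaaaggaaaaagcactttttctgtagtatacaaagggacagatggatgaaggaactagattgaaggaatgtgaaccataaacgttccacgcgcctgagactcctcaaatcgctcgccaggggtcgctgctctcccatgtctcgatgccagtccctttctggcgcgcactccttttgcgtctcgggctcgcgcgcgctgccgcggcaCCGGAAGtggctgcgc
The Bcl2 window is 76.0% G and C and holds GGGCGG 7 times, none of them overlapping. This motif is found at least 1 time in 35.7% of the 32851 windows of the same length. The Bcl2l1 window is 52.3% G and C, close to the median window (52.7%), and holds CCGGAAG 1 time, a motif in 8.86% of windows. Bcl2l1 has 2 further annotated start windows, of which 1 holds AGATAA, a motif in 11.2% of all windows. None of these 4 windows holds TTCNNNGAA, which 8.3% of windows do. GGGCGG was not particular to Bcl2 among the members. The annotated windows of Bbc3, called lower in B16, are 76.0%, 74.7% and 78.0% G and C and hold it 5, 4 and 7 times. Those of Bcl2l11, also called lower in B16, hold it 3 times each. Bax holds it 3 times, Mcl1, Bcl2a1b and Bcl2a1d 1 time each, and Bak1 0 times. These matches describe the letters only.

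Mcl1 encodes a guardian with a short half-life that T cells, B cells and myeloid cells all depend on. The gene (ENSMUSG00000038612, chromosome 3, 95658788 to 95663176) had the highest level of the family in all 4 libraries, also per kilobase of exon. It had 26320.5 normalized counts in B16 CTRL, against 38480.2 in the library labelled residual, a difference under the size limit (log2 -0.55, -0.57 to -0.53). In CT-26 it had 46844 in CTRL, against 131139 in the library labelled residual, and was called lower (log2 -1.49, -1.50 to -1.47). Monocyte markers, which differed more between the CT-26 populations, stood at 194 CPM in CT-26 CTRL against 9416 CPM, and at 3028 CPM in B16 CTRL against 4879 CPM; neutrophil markers were far lower in CTRL in both models. Their part in the lower Mcl1 level was not tested. Scaled to total reads, Mcl1 stood at 0.29 in B16, on the other side of 0.

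Bcl2a1b and Bcl2a1d are members of a cluster of near-identical copies of the A1 gene on chromosome 9 (mm10). Bcl2a1b (ENSMUSG00000089929) spans bases 89199209 to 89207827, Bcl2a1d (ENSMUSG00000099974) spans 88723285 to 88731914, and Bcl2a1a lies between them. They are read together because a short read often fits more than 1 copy. The first 150 coding bases of the 3 expressed copies are shown for this reason (GENCODE M21 transcripts), with capitals where a copy differs from the base that most of the 3 copies hold.
Bcl2a1a: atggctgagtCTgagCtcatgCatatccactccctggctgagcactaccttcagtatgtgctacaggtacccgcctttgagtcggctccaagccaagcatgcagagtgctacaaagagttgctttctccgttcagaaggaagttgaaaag
Bcl2a1b: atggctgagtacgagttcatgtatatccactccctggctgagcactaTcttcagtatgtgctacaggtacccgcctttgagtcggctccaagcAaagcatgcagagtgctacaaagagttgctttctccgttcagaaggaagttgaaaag
Bcl2a1d: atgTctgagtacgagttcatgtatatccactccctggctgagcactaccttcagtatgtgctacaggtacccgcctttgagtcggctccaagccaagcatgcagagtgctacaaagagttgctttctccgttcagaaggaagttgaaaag
Over the whole transcript, Bcl2a1b and Bcl2a1d are 99.1% identical (810 of 817 aligned bases), and Bcl2a1a is 98.2% identical to Bcl2a1b and 98.8% to Bcl2a1d. Of all 50-base windows, 57.6% of those in Bcl2a1b and 79.5% of those in Bcl2a1d occur unchanged in another copy, and at 100 bases 31.1% and 54.7% do. The sources used here do not say how reads that fit several copies were counted, so the value of each single copy is uncertain.

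In B16, Bcl2a1b had 394 normalized counts in CTRL, against 307 in the library labelled residual (log2 0.36, 0.14 to 0.59). Bcl2a1d had 642 in CTRL, against 654 in the library labelled residual (log2 -0.03, -0.19 to 0.14), an interval that spans 0. Neither was called. In CT-26 both were lower in CTRL: Bcl2a1d had 212 against 993 and was called (log2 -2.22, -2.43 to -2.03), while Bcl2a1b had 144 against 367 (log2 -1.34, -1.62 to -1.08) and missed the level of 10 CPM. The sum over all 4 copies had a log2 ratio of 0.15 (0.04 to 0.26) in B16 and -2.28 (-2.43 to -2.13) in CT-26. No splitting of counted reads among copies can change this sum. Reads left uncounted because they fit several copies, if any, would be missing from it. Neutrophils and B cells express A1 too; neutrophil markers were lower in CTRL in both models, and B-cell markers were higher in B16 and lower in CT-26, as the Bcl2a1 sum was. Their part in it was not tested.

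The split of reads among the copies stood apart in 1 library. Bcl2a1a, which is no member of the 10, took 31.6% of Bcl2a1 reads in B16 CTRL (29.6% to 33.7%, 95% Wilson interval) and 29.2% in the B16 library labelled residual (26.5% to 32.0%). In CT-26 it took 3.35% in CTRL (2.07% to 5.37%; 16 of 478 reads), against 23.7% in the library labelled residual (21.6% to 26.1%; 327 of 1377 reads). Bcl2a1b took 39.1% of the reads in CT-26 CTRL, against 20.6% in the library labelled residual, and Bcl2a1d 57.5% against 55.6%. Bcl2a1c had between 0 and 5 reads in every library.

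**Figure D3:**
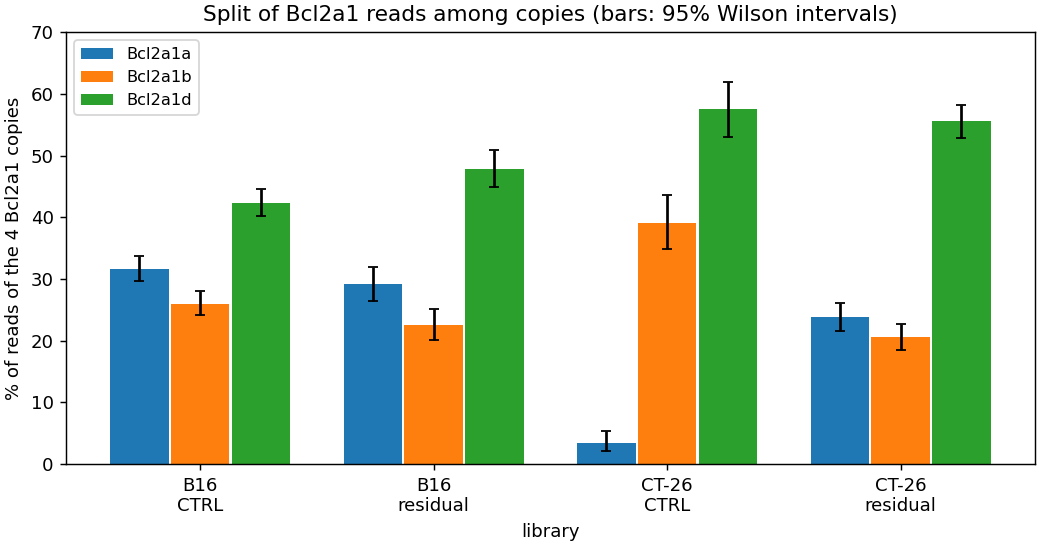
Percent of the reads of the 4 Bcl2a1 copies that were counted for Bcl2a1a, Bcl2a1b and Bcl2a1d in each library, with 95% Wilson intervals that cover counting error only. Bcl2a1a holds 31.6%, 29.2% and 23.7% in the B16 CTRL library and the 2 libraries labelled residual, and 3.35% in CT-26 CTRL.

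The effector genes differed from each other. Bax (ENSMUSG00000003873, chromosome 7, 45461697 to 45466898) had 3703 normalized counts in B16 CTRL, against 3585 in the library labelled residual, and 7081 in CT-26 CTRL, against 6859. Its log2 ratios of 0.05 (-0.02 to 0.11) in B16 and 0.05 (-0.0030 to 0.10) in CT-26 had intervals that span 0, and no other member had such an interval in both models. This holds under the authors' scaling; scaled to total reads Bax stood at 0.89 in B16 and 0.24 in CT-26, and per T-cell marker read at -1.67 and -1.40. Bak1 (ENSMUSG00000057789, chromosome 17, 27019810 to 27029009) was the least expressed member, with 34 reads in B16 CTRL against 147, and 130 reads in CT-26 CTRL against 190. Its ratios were -2.84 (-3.47 to -2.34) and -1.29 (-1.63 to -0.97), but its highest library held 3.76 CPM, so it was under the level for a call in both models. Per kilobase of exon, Bak1 stood at 0.00460 of the level of Bax in B16 CTRL and 0.0351 in the library labelled residual, and at 0.00926 and 0.0235 in CT-26.

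The 3 BH3-only genes did not follow 1 pattern across the models. Bcl2l11, which encodes BIM, the main trigger of death by cytokine withdrawal in T cells (ENSMUSG00000027381, chromosome 2, 128126038 to 128162547), had 1349 normalized counts in B16 CTRL, against 3064 in the library labelled residual. It was called lower there (log2 -1.18, -1.27 to -1.09). In CT-26 it had 5084 in CTRL, against 6204 in the library labelled residual, under the size limit (log2 -0.29, -0.34 to -0.23).

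Bbc3, which encodes PUMA, a target of p53 (ENSMUSG00000002083, chromosome 7, 16308393 to 16318205), had 887 normalized counts in B16 CTRL, against 2002 in the library labelled residual, and was called lower (log2 -1.17, -1.29 to -1.06). In CT-26 CTRL it was instead above its partner, with 4740 against 3574 (log2 0.41, 0.34 to 0.47), without being called. Pmaip1, which encodes NOXA, the partner that binds MCL1 (ENSMUSG00000024521, chromosome 18, 66458533 to 66465565), went the other way. It had 2022 normalized counts in B16 CTRL, against 1687 in the library labelled residual (log2 0.26, 0.16 to 0.36). In CT-26 it had 1758 in CTRL, against 6799 in the library labelled residual, and was called lower (log2 -1.95, -2.02 to -1.88). The B16 calls of Bcl2l11 and Bbc3 were lost under scaling to total reads, where they stood at -0.34 and -0.33, while Pmaip1 and Bcl2a1b then reached 1.10 and 1.20 and were called higher.

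**Figure D4:**
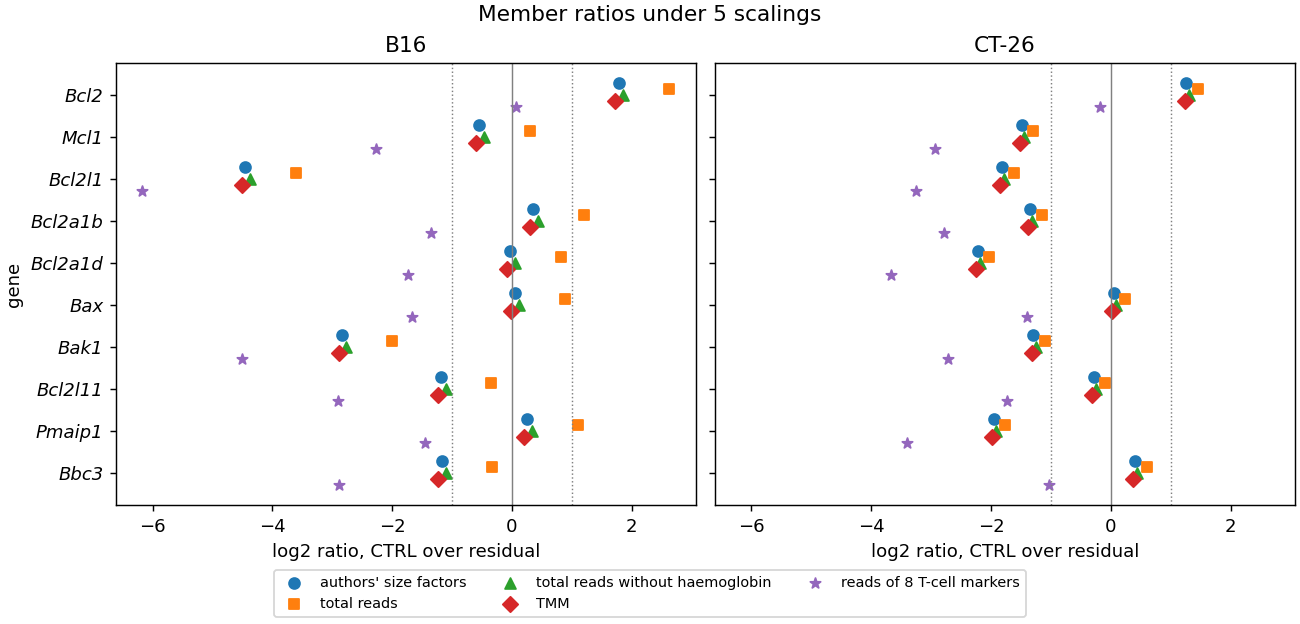
Log2 ratio, CTRL over residual, of each gene under 5 scalings (marker shapes) in B16 (left) and CT-26 (right), with the size limit of 1 dotted. Bcl2 lies at 1.73 to 2.63 under 4 of the scalings in B16 and at 1.23 to 1.46 in CT-26, and near 0 per T-cell marker read, while Bcl2l1 lies below -1 under all 5 in both models.

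Ratios between genes of 1 library do not depend on how libraries are scaled, and they were taken on reads per kilobase of annotated exon. The exon length of a gene is the union over its transcripts (9.16 kb for Bcl2). A gene whose expressed transcripts are shorter than this union is therefore placed too low relative to the others. The shift is equal in all libraries only if they use the same transcripts, which was not tested. Bcl2 stood at 8.60 times the level of Bcl2l1 in B16 CTRL (8.09 to 9.14), against 0.114 times in the library labelled residual (0.109 to 0.118). In CT-26 it stood at 8.82 times (8.48 to 9.17) in CTRL, against 1.04 times (1.01 to 1.08). For this pair of genes the counting intervals of the 2 CTRL libraries overlapped, while those of the libraries labelled residual did not. These intervals hold no spread between animals or libraries, so they do not test whether the models are alike. Bcl2 relative to Mcl1 was 0.207 in B16 CTRL against 0.0411, and 0.285 in CT-26 CTRL against 0.0424. Here it was the reverse. The intervals of the libraries labelled residual overlapped (0.0396 to 0.0426 in B16, 0.0416 to 0.0432 in CT-26). Those of the CTRL libraries did not (0.204 to 0.211 in B16, 0.281 to 0.288 in CT-26). Relative to Bcl2l11, the guardian Bcl2 stood at 9.50 (9.05 to 9.98) in B16 CTRL against 1.21 (1.15 to 1.28), and at 6.16 (6.01 to 6.33) in CT-26 CTRL against 2.11 (2.04 to 2.18). Bcl2 relative to Bax was 0.679 in B16 CTRL against 0.203, and 0.869 in CT-26 CTRL against 0.374. Each of these 4 ratios was higher in CTRL in both models. All 4 set Bcl2, the member with the highest log2 ratio in both models, over another member. They were therefore bound to be higher in CTRL and restate the Bcl2 result. Between the CTRL libraries, Bcl2 relative to Pmaip1 was 2.16 in B16 and 6.07 in CT-26, and relative to Bbc3 it was 3.82 and 1.75. Mcl1 relative to its partner Pmaip1 was not higher in CTRL in both models: it was 10.4 in B16 CTRL against 18.2, and 21.3 in CT-26 CTRL against 15.4.

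Of all reads per kilobase in the 10 genes, guardians made up 74.4% in B16 CTRL against 79.7% in the library labelled residual, and 69.7% in CT-26 CTRL against 82.1%. Mcl1 alone held 53.5% in B16 CTRL against 53.1%, and 51.7% in CT-26 CTRL against 73.0%. Bax held 16.3% in B16 CTRL against 10.7%, and 16.9% in CT-26 CTRL against 8.28%. By level per kilobase, Mcl1, Bax and Bcl2 had ranks 1, 2 and 3 in both CTRL libraries. In the B16 library labelled residual Bcl2l1 had rank 2 with 19.2% and Bcl2 rank 7 with 2.18%, and in the CT-26 library labelled residual Bax had rank 2, Pmaip1 rank 3 and Bcl2 rank 5.

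**Figure D5:**
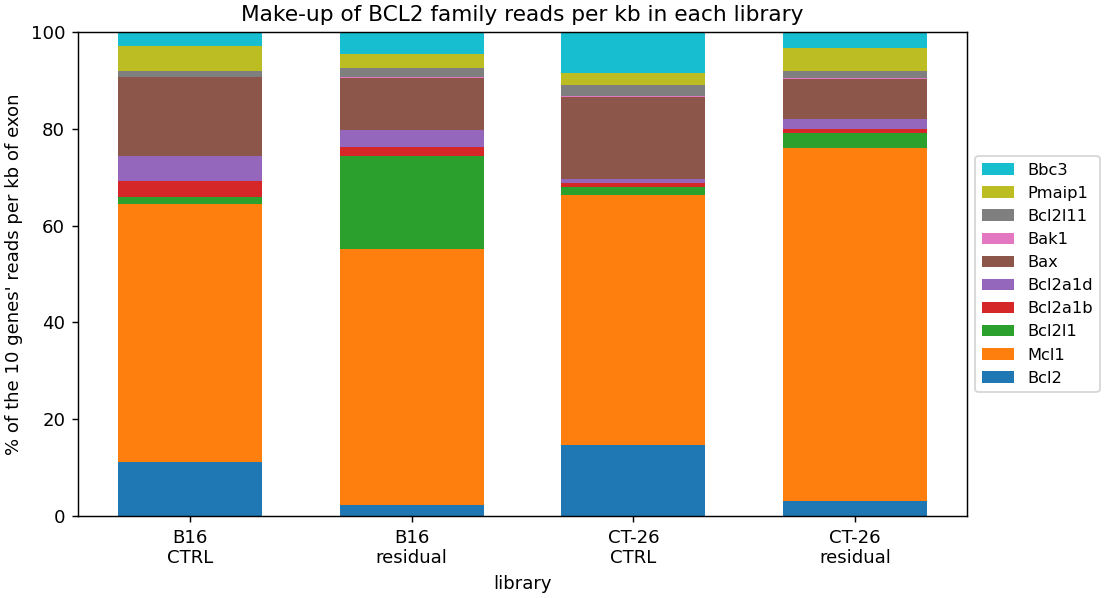
Percent of the summed reads per kilobase of exon of the 10 genes that each gene holds, 1 bar per library. Mcl1 is the largest part of every bar (51.7% to 73.0%), Bcl2 holds 11.1% and 14.7% in the CTRL libraries against 2.18% and 3.10% in those labelled residual, and Bcl2l1 holds 19.2% in the B16 library labelled residual.

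Other genes of the pathway were read from 3 lists. Of 16 further BCL2 relatives, 6 reached the level in B16, with 1 higher (Bcl2l13) and 1 lower (Bnip3l), and 5 in CT-26, with 0 higher and 3 lower (Bid, Bnip3 and Bnip3l). Among all genes at the level, 26.8% were called higher and 11.7% lower in B16, and 14.5% and 16.3% in CT-26. The medians of these relatives at the level were 0.14 in B16 and -1.14 in CT-26, beside 0.47 and 0.23 for all genes. Bnip3l, a mitophagy receptor that clears mitochondria from maturing red cells, was the most expressed of them, with 9836 reads in B16 CTRL against 50222, and 14293 reads in CT-26 CTRL against 22414; its log2 ratios were -3.12 and -1.40. Bid, which links death receptors to mitochondria, stood at 0.01 in B16 and -1.14 in CT-26, and Bcl2l13 at 1.51 and 0.83. The red cell markers, lower in CTRL in both models, moved with Bnip3l, and their part in it was not tested.

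Genes of the caspase cascade, among them several that act at death receptors, were counted in each model, and the difference between models was not tested. Of the 21 genes, 19 reached the level in each model; in B16, 7 were higher in CTRL (Casp9, Casp8, Casp2, Birc5, Aifm1, Dffa and Dffb) and 0 lower, and in CT-26, 0 were higher. Of all genes at the level, 26.8% were called higher and 11.7% lower in B16, and 14.5% were called higher in CT-26. The medians of the list were 0.67 and 0.18, beside 0.47 and 0.23 for all genes at the level. Birc3, an inhibitor of apoptosis protein that acts in NF-kB signalling, stood at 0.20 in B16 and -0.84 in CT-26. Casp8, the caspase of death receptors, stood at 1.15 and 0.28, Birc2 at -0.33 and 0.45, and Cflar, which restrains Casp8, at -0.21 and 0.33.

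Genes that feed into the family or bind its proteins numbered 18, all at the level in both models. In B16, 4 were higher (Trp53, Foxo1, Il7r and Il2rg) and 2 lower (Cdkn1a and Foxo3), and in CT-26, 5 were higher (the same 4 and Stat5a) and 1 lower (Cdkn1a). Of all genes at the level, 26.8% were called higher and 11.7% lower in B16, and 14.5% and 16.3% in CT-26. The medians of the list were 0.27 in B16 and 0.06 in CT-26, under the 0.47 and 0.23 of all genes at the level. Il7r and Il2rg encode the receptor chains for interleukin 7, a cytokine that maintains BCL2 in resting T cells; Il7r stood at 1.56 in B16 and 2.47 in CT-26, and Il2rg at 1.75 and 1.14. Il2rb, a receptor chain for interleukins 2 and 15, stood at 0.23 and -0.12. Foxo1, a transcription factor that sustains Il7r in resting T cells, stood at 1.02 and 1.26, and Dynll1, whose protein binds BIM, at -0.07 and -0.37. T-cell markers were higher in both CTRL libraries beside these genes, and their part in it was not tested.

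The contrast was repeated only across the models, so the 4 libraries were fitted together with population and model as terms, which leaves 1 residual degree of freedom. edgeR's quasi-likelihood test with Benjamini-Hochberg adjustment called 0 of 18749 genes (0.0% of those tested), with 2998 at an unadjusted p under 0.05. Bcl2 had a log2 fold of 1.37 (adjusted p = 0.243) and Bcl2l1 of -3.28 (adjusted p = 0.265), each in the same direction in both models. The other members had adjusted p values of 0.315 to 0.885 in this edgeR fit. DESeq2 called 1799 of 40101 genes, 300 higher and 1499 lower, and among the members Bcl2 (log2 1.46, adjusted p = 0.0484) and Bcl2l1 (log2 -3.20, adjusted p = 5.64e-05). Over all alternatives of this fit the adjusted p of Bcl2 ran from 0.0484 to 0.999974 and that of Bcl2l1 from 5.64e-05 to 0.65, so whether either passes depends on the tool and settings, while the direction of both was the same in each. Since nothing in the labels says how many animals a library holds, these p values measure the spread between libraries of 2 models only.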

How the data were processed

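RNA was sequenced after a Takara SMART-Seq v4 protocol, per the labels' protocols. HTSeq 0.11.2, STAR 2.7.3a and DESeq2 are named, with the build mm10 and no roles, per the submitters' processing notes. Raw read counts per gene were deposited by the authors beside normalized counts, a signal that equals the deposited count divided by 1 size factor per library (1.31 and 0.766 for B16 CTRL and residual, 1.30 and 0.770 for CT-26). The log2 fold and the unadjusted p-value in the authors' deposited table were used only as an alternative (the fold) and not used (the p-value). The sources used here do not say whether counting used strand.

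Ratios, CPM and exact intervals were computed with Python 3.11.15 and scipy 1.17.1, and the fit over both models used edgeR 4.0.16 (TMM, filterByExpr) and DESeq2 1.42.0. The rule and the fit were run on simulated counts with known changes. Apart from the changed genes, the simulated populations had the same means, so these runs do not cover libraries that differ in cell make-up. At 10 CPM a gene has 372, 391, 749 and 508 reads in B16 CTRL, B16 residual, CT-26 CTRL and CT-26 residual. GENCODE M21, on the same build, gave positions and exon lengths and held 99.8% of the gene IDs. RefSeq windows were used for 9 of 10 members, since windows on chromosome 18, where Pmaip1 lies, were left out. The members, gene lists and marker lists were chosen with earlier results of these data known. All 10 members are named, and from each other list the 3 with the highest mean level in a model; the other called genes of those lists are named because of their call, after values were seen. Markers are given as sums, 1 red cell marker of 10 having no match. Bcl2a1a, Bcl2a1c and the ratios between members were chosen after values were seen. The alternatives changed the scaling, the pseudocount (0.1 or 5), the size and level limits or the fit, took the authors' fold, or left out each library. The genes of the caspase list that were called lower in CT-26 are not reported here.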

Additional observations from a re-analysis of the deposited data

Results flagged for a closer look

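In the 2 models, 3 genes of the family had ratios of opposite sign, each with a counting interval that lies off 0; with 1 library per group the difference between models was not tested. Pmaip1 was above its partner in B16 CTRL (log2 0.26) and below it in CT-26 CTRL (-1.95), a difference of 2.21 between B16 and CT-26. Bcl2a1b stood at 0.36 and -1.34, a difference of 1.70, and its reads may be split with near-identical copies. Bbc3 stood at -1.17 and 0.41, a difference of -1.58. The signs stayed opposite under 6 of 7 alternatives for each gene; scaled to T-cell marker reads, all 3 genes were below 0 in both models. The models also differ in their B-cell and monocyte markers, and model, strain and cell make-up cannot be told apart.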

How the results depend on the processing

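Of 10 members, the count past the rule was 4 in B16 and 5 in CT-26. It was 8 in B16 (0 higher, 8 lower) and 7 in CT-26 (0 higher, 7 lower) when libraries were scaled to T-cell marker reads, 4 in B16 but with 3 higher and 1 lower, against 1 higher and 3 lower, when scaled to total reads, and 1 in B16 and 1 in CT-26 at a size limit of 2. The 1 member value by model that turned its sign after being called was Bcl2 in CT-26, at -0.18 per T-cell marker read. Over all genes, B16 had 3573 calls and CT-26 2936. Scaling to total reads gave 6508 in B16 and moved the median log2 ratio by 0.84 in B16 and 0.19 in CT-26; the share of calls that were higher was 90.8% in B16, against 69.5% with the authors' scaling, and 58.8% in CT-26, against 47.0%. Scaling to T-cell marker reads gave 5805 and 5943 calls, 2.05% and 1.65% of them higher, with medians moved by -1.72 and -1.44. A size limit of 0.5 gave 6166 and 5618, and one of 2 gave 960 and 1182. A level of 1 CPM gave 6490 and 5385, and no filter on level 25981 and 13700, with 57.3% and 21.7% of B16 calls higher. A size limit of 2 left 42.6% of calls higher in B16 and 17.6% in CT-26, and one of 0.5 left 60.2% in CT-26.

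The fit over both models called 0 genes; DESeq2 called 1799, edgeR without TMM factors 747 and edgeR without the filter on low counts 987. With population as the sole term and 1 library left out, the calls ran from 0 to 551, the highest without B16 CTRL and 11 without CT-26 CTRL; the lone library is then assumed to vary like the others. Bcl2l1 also passed without TMM factors (-2.62, adjusted p = 0.0383) and without the filter (-3.07, adjusted p = 0.00415). Bcl2a1b, Bax and Bbc3, not called in any of these fits, changed sign in some: without TMM factors Bcl2a1b was at 0.024, Bax at 0.56 and Bbc3 at 0.13, without the filter Bax was at 0.11, and with a library left out Bcl2a1b was at 0.23 (B16 residual) or 0.50 (CT-26 CTRL), Bax at 0.024 (CT-26 residual) and Bbc3 at 0.22 (B16 CTRL). The cause was not tested. Counted over all 4 copies, Bcl2a1 had 1981 reads in B16 CTRL and 1046 in B16 residual, against 1354 and 736 for Bcl2a1b and Bcl2a1d alone, and 1377 in CT-26 residual, against 1048. The labels give no replicate numbers; the model term of the fit sets each CTRL library against the residual library of its own model, and without that term edgeR also called 0 genes (2363 at an unadjusted p under 0.05). Depth limits Bak1 (34 to 190 reads) and Bcl2a1b (187 to 515 reads) most.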
